A study of Mus musculus with 4 samples.

Results

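Adipocyte nuclei of inguinal white adipose tissue (iWAT) were compared between mice given CL-316,243 (CL) for 7 days and mice kept in the cold for 7 days. The members were the nuclei that the deposited annotation placed in the clusters Adipocyte (white adipocytes) and Beige in the 3 mice of day7CL and the 3 mice of day7C. These were 2079 nuclei, out of 7004 adipocyte nuclei and 32552 nuclei of all cell types in 21 mice. The series is single-nucleus ATAC-seq (snATAC-seq), which marks open chromatin in single nuclei by where a transposase inserts, in 7 groups of 3 mice each. All mice were male C57BL/6 animals without genetic modification, 8 weeks old after 14 days of acclimation at 22 °C. The day7C mice were housed at 6.5 °C, the day7CL mice received CL at 1 mg/kg per day, at room temperature by the account of the study, and the reference mice (day0RT) were sampled at 22 °C before any intervention. Treatment and housing temperature therefore differed together between the compared groups. The nuclei came from whole tissue, and no vehicle-injected group was analysed here. The 4 sequencing lanes that carry sample labels pool the mice, so mouse, group and cluster of each nucleus were read from the deposited annotation, and each mouse was 1 replicate.

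CL is a selective agonist of the β3-adrenergic receptor (Adrb3), which raises cAMP in adipocytes. Cold exposure reaches the same receptor through noradrenaline released by sympathetic nerves, but also acts on other receptors, hormones and tissues. Either stimulus can induce beige adipocytes, which express the uncoupling protein *Ucp1*, and can alter *de novo* lipogenesis (DNL), the synthesis of fatty acids from acetyl-CoA, in adipose tissue.

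The day7CL mice contributed 484, 317 and 357 adipocyte nuclei and the day7C mice 302, 293 and 326. Their summed counts ranged from 844564 to 3863696, and day7CL mouse 1 was the deepest, with a median of 6690 counts per nucleus against 1930 to 3510 in the other 5 mice. A count is 1 nucleus with reads in 1 peak, because the deposited matrix is binary. No nucleus barcode was shared among the 6 mice, although 4218 barcodes recurred in mice of different days. The adipocyte nuclei, white and beige summed together, were checked against marker genes. Such a sum cannot check the division into white and beige, which was taken from the deposited annotation. The study annotated its clusters partly by marker genes in these same data, so the marker values describe the nuclei and are no independent check. The summed accessibility of 5 adipocyte markers was 1440 to 1740 counts per 1000000 counts of the library (CPM) in day7CL and 1410 to 1580 CPM in day7C, against 185 to 228 CPM in the lymphocyte nuclei, and the beige marker sums were 813 to 985 and 933 to 1060 CPM, against 59.5 to 90.5 CPM in lymphocytes. The receptor gene *Adrb3* was at 142, 169 and 179 CPM in day7CL and 146, 148 and 169 CPM in day7C, and the groups overlapped (log2 difference 0.02, adjusted p = 0.998). The adipogenic factor *Pparg* (log2 difference 0.12, adjusted p = 0.793) and the adipokine gene *Adipoq* (−0.07, adjusted p = 0.95) also overlapped between the groups.

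Beige adipocytes made up a smaller share of the adipocyte nuclei in each CL-treated mouse than in each cold-exposed mouse. The share was 22.1%, 14.5% and 23.5% in day7CL and 32.5%, 29.7% and 26.1% in day7C, so the groups did not overlap. The means were 20.0% ± 4.84 and 29.4% ± 3.21 (SD, n = 3), a difference of −9.4 percentage points (exact permutation test, two-sided, p = 0.1, the smallest p that 3 against 3 mice allow). The counting intervals of single mice (95% Wilson) ran from 11.1–18.8% in day7CL mouse 2 to 27.4–37.9% in day7C mouse 1, and those of day7CL mouse 3 (19.4–28.2%) and day7C mouse 3 (21.6–31.1%) overlapped. Before any intervention the share was 9.22% ± 2.62 (SD, n = 3), and at day 3 it was 12.8% ± 7.06 in CL and 12.2% ± 3.21 in cold. The total matters for this comparison. With all nuclei of the mouse as the total the difference was −1.0 percentage point (exact p = 0.6), adipocytes being 23.9%, 18.2% and 26.7% of nuclei in day7CL and 17.5%, 23.8% and 16.8% in day7C. Without day7CL mouse 2 it was −6.6 percentage points (exact p = 0.2). Because white and beige nuclei are summed below, a difference in a sum can reflect the mix of nuclei or the accessibility within each kind, and these cannot be told apart in a sum.

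Lymphocytes were 65.1 to 74.1% of all nuclei of these mice, and signal from their peaks was also present in adipocyte nuclei. The share of adipocyte counts that fell in 7542 peaks of the lymphocyte clusters was 3.0%, 2.93% and 2.55% in day7CL and 2.39%, 2.23% and 2.35% in day7C, without overlap (means 2.83% ± 0.242 and 2.32% ± 0.0833, exact p = 0.1). In the median nucleus the share overlapped between groups, at 1.96 to 2.15% in day7CL and 1.95 to 2.12% in day7C, against 25.4% in the median lymphocyte nucleus. Nuclei above 2.67%, the 75th percentile of adipocyte nuclei outside day 7, were 27.7%, 28.1% and 23.2% of the day7CL nuclei and 21.9%, 15.7% and 12.3% of the day7C nuclei (exact p = 0.1). The groups therefore separated in the nuclei above the limit and overlapped in the median nucleus. Of 13 pan-lymphocyte markers, 12 were tested, all 12 had a log2 difference above 0 (median 0.51), and none was called, although 8 had an unadjusted p under 0.05 in that direction. Their summed accessibility was 659 to 781 CPM in day7CL, 561 to 586 CPM in day7C and 4400 to 5050 CPM in lymphocytes. In adipocyte nuclei at or under the 2.67% limit the median over the markers was 0.16. These nuclei were chosen by their low share in lymphocyte peaks, so a smaller difference of lymphocyte genes there is partly built in. Values from these nuclei therefore do not test where that signal came from.

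**Figure D1:**
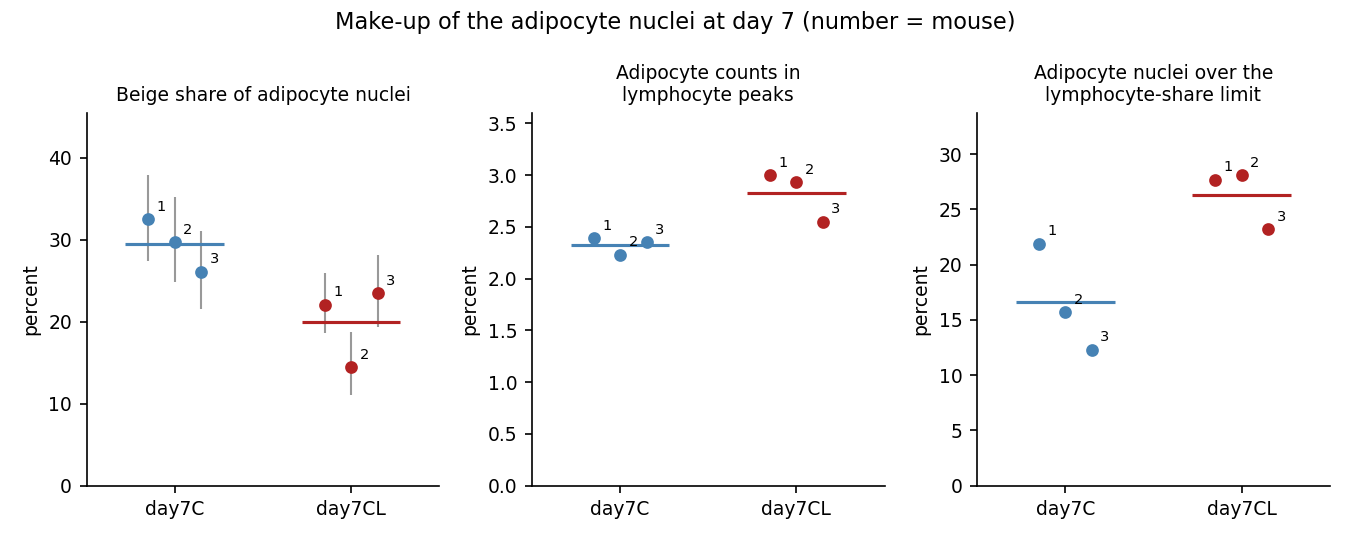
Make-up of the adipocyte nuclei of each mouse at day 7, with 1 numbered point per mouse, a horizontal bar at the group mean and the vertical axis in percent; grey lines on the left panel are 95% Wilson intervals. The beige share is lower (14.5 to 23.5%) and the share of counts in lymphocyte peaks higher (2.55 to 3.0%) in every day7CL mouse than in any day7C mouse (26.1 to 32.5% and 2.23 to 2.39%).

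For this reason genes were marked as lymphocyte genes when they were more than 1 log2 unit more accessible in B and T cell nuclei than in adipocyte nuclei of the mice outside day 7 (adjusted p under 0.05). This held for 1914 of 13626 genes (14%), and 1579 of these were tested at day 7. Summed markers of other immune cells were also compared, and no gene of these 4 lists was called. The sums did not overlap for the macrophage list (285 to 333 against 253 to 274 CPM) or the dendritic cell list (191 to 207 against 143 to 163 CPM), and neither did those of the B cell list (1310 to 1330 against 1150 to 1230 CPM) and the T cell list (326 to 346 against 255 to 262 CPM). The adipocyte progenitor (332 to 336 against 324 to 340 CPM), endothelial, epithelial and skeletal muscle lists overlapped. The keratin markers *Krt5* and *Krt18* were listed at 0 in all 6 mice. A gene without any peak is also listed at 0, so these zeros do not measure an absence of epithelial signal. The smooth muscle sums were 681 to 719 in day7CL and 646 to 681 CPM in day7C, and before rounding they did not overlap, so the lack of overlap was not confined to immune lists.

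Accessibility was then compared gene by gene, to ask where 7 days of the agonist and 7 days of cold left adipocyte chromatin in different states. Of 14429 genes tested, 13 were called higher in CL than in cold (0.0901%) and 3 lower (0.0208%). Of the 13 higher genes 8 were lymphocyte genes, which left 5 higher and 3 lower genes without that mark. Among the tested lymphocyte genes 1066 were above 0 and 513 below (median log2 difference 0.11), and no lymphocyte gene was called lower by edgeR, with 23 lower and 245 higher at an unadjusted p under 0.05. Among the 11697 unmarked genes 5446 were above 0 and 6251 below (median −0.01). In nuclei with few counts in lymphocyte peaks, a choice that itself removes lymphocyte signal, the median of the lymphocyte genes was −0.03. There 6 genes were called higher and 1 lower. At an unadjusted p under 0.05, 708 genes were higher (4.91%) and 523 lower (3.62%). The number of calls rests on few mice. It was 1 without day7C mouse 1, 3 without day7CL mouse 2, 7 without day7CL mouse 1 and 9 without each of the others. The direction was not stable either, with 5 higher and 6 lower in white adipocyte nuclei alone, where 6 of the 16 calls remained, and 4 higher and 5 lower without day7C mouse 3. With the replicate number as a block, 32 genes were called, 23 higher and 9 lower, and all 16 remained. DESeq2 called 0 genes, with 331 at an unadjusted p under 0.05. The called genes with the largest differences are named below only where the groups did not overlap. Their lack of overlap is therefore part of the choice, and no share of such genes over all tested genes is given here.

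**Figure D2:**
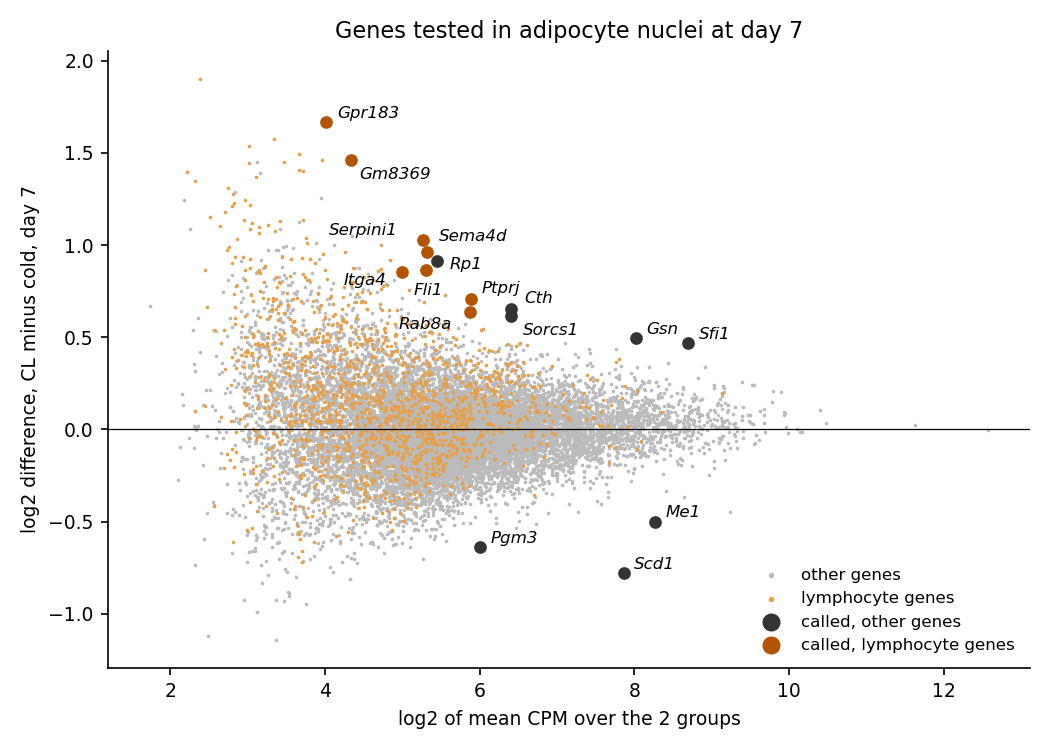
Each point is 1 of 14429 genes, with log2 of the mean CPM over the 2 groups on the horizontal axis and the log2 difference CL minus cold at day 7 on the vertical axis; large points are called genes and orange points lymphocyte genes. The called higher genes are 8 lymphocyte genes and 5 others, and the called lower genes are *Scd1*, *Me1* and *Pgm3*.

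The genes called lower in CL than in cold were *Scd1*, *Me1* and *Pgm3*, and a pair of them belong to DNL. *Scd1* encodes stearoyl-CoA desaturase, which places a double bond in newly made fatty acids. At chr19:44394455-44407879 (GRCm38/mm10, minus strand), it was at 195, 132 and 182 CPM in day7CL and 357, 260 and 275 CPM in day7C. Every CL-treated mouse was below every cold-exposed mouse, and the means were 170 ± 33.2 and 297 ± 52.0 CPM (SD, n = 3; log2 difference −0.78, SE 0.14, adjusted p = 0.00281). The day0RT mice were at 195, 240 and 281 CPM (mean 239 ± 43.0), and so reached from the level of the highest CL-treated mouse to above 2 of the cold-exposed mice. In white adipocyte nuclei alone the difference was −0.97 (adjusted p = 1.62e-05) and in beige nuclei alone −0.26 (adjusted p = 0.742), and the difference between the nuclei was not tested. The call was lost without day7CL mouse 2 (−0.64, adjusted p = 0.0869) and without day7C mouse 1 (−0.63, adjusted p = 0.113), and under DESeq2 (−0.80, adjusted p = 1.0), and over 16 alternatives the difference ran from −0.97 to −0.26. In nuclei with few counts in lymphocyte peaks it was −0.74 (adjusted p = 0.00182).

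*Me1* encodes malic enzyme, which supplies NADPH for fatty acid synthesis. It lies at chr9:86581371-86695953 and was at 283, 249 and 223 CPM in day7CL and 477, 300 and 314 CPM in day7C. The groups did not overlap, though day7C mouse 1 stood well above the rest (log2 difference −0.50, SE 0.12, adjusted p = 0.0462), and day0RT was at 206 ± 6.96 CPM. The call was lost when any of the CL-treated mice was left out (adjusted p between 0.051 and 0.217) and without day7C mouse 1 (−0.26, adjusted p = 0.689). *Pgm3*, which encodes an enzyme of the hexosamine pathway, lies beside *Me1* at chr9:86554377-86571842. It was at 51.7, 58.2 and 37.4 CPM in day7CL and 93.9, 69.6 and 73.4 CPM in day7C (log2 difference −0.64, SE 0.15, adjusted p = 0.0462), with day0RT at 50.6 ± 8.36 CPM. Of its counts 86.6% fell in 2 peaks that it shares with *Rwdd2a*, so the signal cannot be given to either gene, and leaving out any of the 6 mice ended the call (adjusted p between 0.0657 and 0.476). In nuclei with few counts in lymphocyte peaks neither *Me1* (−0.475, adjusted p = 0.114) nor *Pgm3* (−0.584, adjusted p = 0.18) stayed called. With unmarked genes only, the adjusted p was 0.0846 for each.

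The rest of the DNL pathway was read from a list of 21 genes, of which 20 were tested and *Insig1* was listed at 0 in all 6 mice. A gene without any peak is also listed at 0, so that value does not measure closed chromatin. Besides *Scd1* and *Me1* none passed the threshold. Of the 20 genes 16 were below 0, and 8 had an unadjusted p under 0.05, all 8 of them lower in CL. The median was −0.21, beside −0.00 over all genes tested. Of these 8 genes all but *Fasn* and *Thrsp* were highest in day7C mouse 1, and those were highest in day7C mouse 2. Genes of the list come from the same mice and are not separate observations, and the list median without day7C mouse 1 was not tested. *Acaca*, which encodes the acetyl-CoA carboxylase that commits acetyl-CoA to fatty acids, was at 549, 487 and 491 CPM in day7CL and 840, 684 and 582 CPM in day7C. The groups did not overlap, but the gene missed the threshold (log2 difference −0.45, SE 0.11, adjusted p = 0.0529). *Fasn*, the fatty acid synthase gene, was at 143, 176 and 175 against 222, 236 and 184 CPM (−0.40, adjusted p = 0.285). *Elovl6*, a fatty acid elongase gene, gave −0.37 (adjusted p = 0.269) and *Acss2*, which encodes an acetyl-CoA synthetase, gave −0.39 (adjusted p = 0.321), with overlap in each. *Acly*, the ATP citrate lyase gene, gave −0.18 (adjusted p = 0.807). The genes of the transcription factors that drive this pathway did not separate, with log2 differences of −0.01 for *Srebf1* (301, 302 and 307 against 301, 295 and 314 CPM) and 0.00 for *Mlxipl*. All 7 lipogenic genes that the study lists were below 0 (median −0.39), 6 had an unadjusted p under 0.05 and 1 was called. *Scd1*, *Acaca*, *Acss2*, *Elovl6* and *Acly* of that list are also among the 21 genes, so the counts of both lists overlap. The study names its list in its account of these same mice, and how the genes were chosen is not given in the sources used here. The direction of its genes, within the 21 as well, is therefore not taken as independent evidence.

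Among the 5 higher genes without the lymphocyte mark, *Rp1* had the largest log2 difference. *Rp1*, known as a photoreceptor microtubule protein gene (chr1:3999557-4409241), was at 55.4, 57.1 and 57.7 CPM in day7CL and 28.4, 34.8 and 27.9 CPM in day7C. The groups did not overlap (log2 difference 0.92, SE 0.17, adjusted p = 0.00546), and day0RT was lower still, at 16.5 ± 1.35 CPM. The mean was 56.2 counts per mouse at day 7, so the closeness of the 3 CL values is not read as precision. The call was lost without day7CL mouse 1 (adjusted p = 0.051), day7C mouse 1 (0.0688) or day7C mouse 3 (0.106). None of the 10 *Rp1* peaks passed the count filter alone, so the call rests on their sum. *Cth*, which encodes the cystathionine γ-lyase that makes cysteine, lies at chr3:157894248-157925077. It was at 98.9, 112 and 106 CPM in day7CL and 58.9, 59.0 and 75 CPM in day7C (log2 difference 0.65, SE 0.14, adjusted p = 0.0149), without overlap. Without day7CL mouse 2, day7C mouse 1 or day7C mouse 2 its adjusted p was 0.0994, 0.201 and 0.0968.

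*Sorcs1*, a gene of the sortilin family of sorting receptors, was at 96.1, 109 and 99.8 CPM in day7CL and 52.4, 86.3 and 63.0 CPM in day7C (log2 difference 0.62, SE 0.14, adjusted p = 0.0407). *Gsn*, which encodes the actin-severing protein gelsolin, was at 262, 313 and 349 CPM against 180, 212 and 240 CPM (0.50, SE 0.11, adjusted p = 0.0407). Neither overlapped between the groups, which the rule for naming them required. For *Gsn* the CL values were nearer to day0RT (370 ± 34.7 CPM) than the cold values were. All 14 tested *Gsn* peaks were above 0. Of 20 *Sorcs1* peaks only 2 passed the count filter, and both were above 0. *Sfi1*, a centrosome gene, was at 468, 526 and 461 against 333, 316 and 392 CPM (0.47, SE 0.11, adjusted p = 0.0462). In the mice used for the lymphocyte mark it was at 1030 CPM in lymphocytes and 540 CPM in adipocyte nuclei. That log2 difference of 0.85 was under the limit of 1, so the gene stayed unmarked although it was more accessible in lymphocytes. Copies of *Sfi1* with near-identical sequence exist in the mouse genome, so its counts are uncertain, and in nuclei with few counts in lymphocyte peaks its difference was 0.25 (adjusted p = 0.589). *Sorcs1* and *Sfi1* kept the call in 1 of 6 fits that left out a mouse and *Gsn* in 2, and the highest adjusted p values there were 0.434, 0.282 and 0.434, each without day7C mouse 1. The calls held without day7C mouse 2 for *Sorcs1*, without day7C mouse 3 for *Sfi1*, and without day7CL mouse 1 or day7C mouse 3 for *Gsn*. In nuclei with few counts in lymphocyte peaks *Rp1*, *Cth*, *Sorcs1* and *Gsn* stayed called, at 1.00, 0.71, 0.69 and 0.57. In white adipocyte nuclei alone *Rp1* was called (0.98, adjusted p = 0.0352), and *Cth*, *Sorcs1* and *Gsn* were not (0.59, 0.48 and 0.34). In beige nuclei alone *Gsn* was called (0.72, adjusted p = 0.0314), and *Rp1*, *Cth* and *Sorcs1* were not (0.91, 0.76 and 0.89).

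The lymphocyte genes called higher in CL than in cold were more accessible in lymphocytes by the definition of the mark. Their mean counts per mouse at day 7 ran from 21.3 for *Gpr183* to 78.0 for *Rab8a*, beside 56.2 for the unmarked *Rp1*. *Gpr183*, which encodes a receptor that guides B cells, was at 22.6, 26.5 and 24.9 CPM in day7CL and 10.9, 7.57 and 4.79 CPM in day7C (log2 difference 1.67, SE 0.32, adjusted p = 0.00553; 0.233 without day7C mouse 3), and at 176 CPM in lymphocytes. All 8 of its peaks also lie in *Ubac2*. *Gm8369* was at 24.6, 40.2 and 24.9 against 9.82, 12.1 and 9.57 CPM (1.46, adjusted p = 0.0252), with 425 CPM in lymphocytes. *Sema4d*, a semaphorin gene of lymphocytes, was at 48.6, 65.6 and 49.9 against 30.6, 13.6 and 31.1 CPM (0.96, adjusted p = 0.00921), and *Fli1*, an ETS factor gene of blood and endothelial cells, at 51.7, 55.0 and 46.8 against 31.7, 24.2 and 27.9 CPM (0.87, adjusted p = 0.0178), with 488 and 512 CPM in lymphocytes. In nuclei with few counts in lymphocyte peaks these differences were 0.21 for *Sema4d* (adjusted p = 0.896) and 0.27 for *Fli1* (adjusted p = 0.858). *Gpr183* and *Gm8369* had no value there. Leaving out 1 mouse ended the call in 4 of 6 fits for *Gm8369* (highest adjusted p 0.228), in 3 for *Sema4d* (0.137) and in 5 for *Fli1* (0.175).

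*Serpini1*, the gene of a serine protease inhibitor known from neurons, was also among the called lymphocyte genes. It was at 53.4, 39.1 and 60.8 CPM in day7CL and 19.6, 34.8 and 23.9 CPM in day7C (log2 difference 1.03, SE 0.20, adjusted p = 0.00553), and at 63.5 CPM in lymphocytes against 28.1 CPM in adipocyte nuclei of the same mice. In nuclei with few counts in lymphocyte peaks its difference was as large, at 1.03 (adjusted p = 0.00852). The call was lost without day7CL mouse 1, day7C mouse 1 or day7C mouse 3 (highest adjusted p 0.156). The remaining called lymphocyte genes, chosen after their values were seen, were the integrin gene *Itga4* (0.85, adjusted p = 0.0462), the phosphatase gene *Ptprj* (0.70, adjusted p = 0.0252) and the small GTPase gene *Rab8a* (0.64, adjusted p = 0.0462). Each was called in 1 of 6 fits that left out a mouse. In nuclei with few counts in lymphocyte peaks none of the 3 was called. The differences there were 0.54 for *Itga4* (adjusted p = 0.585), 0.51 for *Ptprj* (0.372) and 0.68 for *Rab8a* (0.0757). The part of lymphocyte signal in the higher genes was not tested, since nuclei chosen for few lymphocyte counts lose such signal by that choice.

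The genes most closely tied to beiging did not pass the threshold. *Ucp1* (chr8:83290352-83298452) was at 18.1, 14.8 and 12.5 CPM in day7CL and 37.1, 22.7 and 19.9 CPM in day7C. The groups did not overlap, and at this depth, with a mean of 24.8 counts per mouse, the difference was not significant (log2 difference −0.67, SE 0.27, adjusted p = 0.429), while day0RT was lower, at 7.06 ± 3.06 CPM. Of 30 thermogenic and beige genes tested, none was called, 10 were above 0, 20 below, and the median was −0.09 (0.11 in white adipocyte nuclei alone). *Ppargc1a*, which encodes the coactivator of mitochondrial biogenesis, was at 134, 121 and 126 against 146, 117 and 123 CPM (−0.00), *Prdm16*, a beige fate factor gene, gave −0.17 and *Dio2*, which encodes the deiodinase that activates thyroid hormone, gave −0.14, all short of the threshold. The adrenergic and cAMP signalling list had 46 tested genes, 0 called, and a median of −0.03, the largest difference among those with an unadjusted p under 0.05 being that of the receptor kinase gene *Grk3* (−0.49, adjusted p = 0.296). The immediate cAMP response list had 24 tested genes, 0 called and a median of 0.01, with *Btg2* at 0.44 (adjusted p = 0.357) and *Fosb* at 0.39 (adjusted p = 0.496). In each of these 3 lists between 0 and 3 genes in each direction had an unadjusted p under 0.05.

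Other metabolic lists also held no called gene. The medians were −0.01 over 20 lipolysis and lipid droplet genes, of which none reached an unadjusted p under 0.05, −0.11 over 19 genes of mitochondrial fatty acid oxidation, −0.08 over 30 genes of glycolysis and glucose uptake, −0.10 over 10 glycolytic genes that the study lists, and −0.03 over 11 genes of glycerol and triglyceride synthesis. In the last list *Acsl5*, an acyl-CoA synthetase gene, was at 109, 94.2 and 88.8 CPM against 181, 127 and 112 CPM (−0.45, adjusted p = 0.167). Medians were 0.02 over 19 insulin signalling genes, 0.03 over 35 adipogenic and fate factors and 0.03 over 23 white adipocyte genes and adipokines. In that last list the clearance receptor gene for natriuretic peptides, *Npr3*, was at 137, 122 and 128 against 212, 168 and 158 CPM (−0.45, adjusted p = 0.128), without overlap and short of the threshold. In each of these metabolic lists between 0 and 3 genes in each direction had an unadjusted p under 0.05.

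The same comparison was made peak by peak. Of 47835 peaks tested, 4 were called higher in CL than in cold (0.00836%) and 7 lower (0.0146%), and 3058 had an unadjusted p under 0.05. A pair of the lower peaks lie at the 3′ end of *Scd1* and overlap its UTR. The peak at chr19:44393866-44395644 was at 46.6, 26.1 and 44.5 CPM in day7CL and 108, 84.0 and 76.2 CPM in day7C (log2 difference −1.09, SE 0.16, adjusted p = 3.86e-07). It stayed called whichever mouse was left out and in every other alternative except DESeq2. The neighbouring peak at chr19:44395681-44396314 gave −0.94 (adjusted p = 0.0391), a call that remained in 2 of 6 fits that left out a mouse and was lost without day7CL mouse 2, day7CL mouse 3, day7C mouse 1 or day7C mouse 3 (highest adjusted p 0.758). A further lower peak, in *Cacna2d4* at chr6:119351529-119352905, gave −0.82 (adjusted p = 0.0344; highest 0.439 when a mouse was left out).

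Of the other 4 lower peaks, 3 had means under 20 counts and were named after their values were seen, and they lie in or just past *Acaca* and *Ucp1*. A peak in an intron of *Acaca* at chr11:84350982-84351716 was at 7.76, 6.81 and 4.95 CPM in day7CL and 34.9, 32.3 and 18 CPM in day7C, with no overlap (log2 difference −1.90, SE 0.31, adjusted p = 3.41e-05). It was called whichever mouse was left out, day0RT was at 6.50 CPM, and the call was lost in white adipocyte nuclei alone (−1.78, adjusted p = 0.104) and under DESeq2 (−2.01, adjusted p = 0.511), at differences near that of all adipocyte nuclei. A peak 4963 bases past the end of *Acaca*, at chr11:84406614-84407018, was at 5.91, 4.54 and 4.95 against 13.9, 38.8 and 22.3 CPM (−2.08, SE 0.35, adjusted p = 4.18e-05; 0.0672 without day7C mouse 2). A peak 1448 bases past the end of *Ucp1*, at chr8:83299900-83300441, was at 5.17, 2.27 and 4.95 against 20.9, 19.4 and 14.6 CPM (−1.97, SE 0.44, adjusted p = 0.0439). That call was lost when any of the 6 mice was left out (adjusted p between 0.0689 and 0.526) and with the replicate block (−2.01, adjusted p = 0.0592), and the peak held 2 to 18 counts per mouse. The peak at the *Ucp1* start was lower in each CL-treated mouse as well, at 9.61, 6.81 and 8.24 against 24.4, 17.8 and 13.7 CPM, but short of the threshold (−1.05, adjusted p = 0.495).

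The central 300 bases of the *Acaca* and *Ucp1* peaks are given because 1 lies in a lipogenic gene and 1 beside the gene that defines beige adipocytes, outside any UTR (GRCm38, plus strand, chr11:84351200-84351499 and chr8:83300021-83300320). No capitals are used, since none of the motifs searched occurs in them.
*Acaca* intron peak: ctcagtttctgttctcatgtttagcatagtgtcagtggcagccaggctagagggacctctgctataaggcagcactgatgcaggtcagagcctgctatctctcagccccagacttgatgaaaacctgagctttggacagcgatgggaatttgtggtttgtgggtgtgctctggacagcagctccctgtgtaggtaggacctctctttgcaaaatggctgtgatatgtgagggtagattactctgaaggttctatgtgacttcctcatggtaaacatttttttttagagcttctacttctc
*Ucp1* downstream peak: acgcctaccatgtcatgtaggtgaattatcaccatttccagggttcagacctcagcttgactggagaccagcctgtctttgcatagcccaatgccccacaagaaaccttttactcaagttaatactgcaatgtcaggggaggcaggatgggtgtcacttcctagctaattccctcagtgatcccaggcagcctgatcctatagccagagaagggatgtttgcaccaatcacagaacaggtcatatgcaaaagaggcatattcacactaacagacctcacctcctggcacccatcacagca

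The called peaks were searched on both strands for the letters of a cAMP response element (TGACGTCA), an ESRR motif (TCAAGGTCA), an ETS motif (CCGGAAG), a C/EBP motif (TTGCGCAA) and an AP-1 motif (TGANTCA). The cAMP response element occurred in 1.58% of the 47835 tested peaks, the C/EBP motif in 0.472% and the ETS motif in 10%, and none of the 11 called peaks held any of them. The AP-1 letters occurred in 21.5% of tested peaks, in 3 of the 7 lower peaks and in 0 of the 4 higher peaks. The ESRR letters occurred in 1.82% of tested peaks, in 1 of the 4 higher peaks and in none of the lower peaks. These matches describe the letters only. The windows below show an AP-1 match in a lower peak in an intron of *Pinx1* (chr14:63917258-63917557) and the ESRR match, on the other strand, in a higher peak in an intron of *Nav1* (chr1:135574885-135575184), with the matching letters in capitals (GRCm38, plus strand).
*Pinx1* intron peak: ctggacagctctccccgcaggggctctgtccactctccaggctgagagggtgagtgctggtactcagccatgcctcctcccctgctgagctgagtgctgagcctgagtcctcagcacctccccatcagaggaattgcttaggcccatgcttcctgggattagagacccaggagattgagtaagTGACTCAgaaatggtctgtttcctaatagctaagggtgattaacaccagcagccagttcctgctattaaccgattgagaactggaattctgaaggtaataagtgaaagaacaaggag
*Nav1* intron peak: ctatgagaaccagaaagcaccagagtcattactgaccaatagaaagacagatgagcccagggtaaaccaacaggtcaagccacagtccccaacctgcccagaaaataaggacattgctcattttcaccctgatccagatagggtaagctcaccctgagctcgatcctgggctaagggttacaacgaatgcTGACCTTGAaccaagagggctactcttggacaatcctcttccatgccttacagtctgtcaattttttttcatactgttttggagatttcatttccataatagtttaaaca

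The *Pinx1* peak was at 13.7, 10.2 and 8.24 CPM in day7CL and 36.0, 21 and 27.4 CPM in day7C (log2 difference −1.24, SE 0.27, adjusted p = 0.0344; highest 0.651 when a mouse was left out), and *Pinx1* encodes a telomerase inhibitor. The *Nav1* peak was at 20.7, 26.1 and 13.2 against 8.14, 3.23 and 7.71 CPM (1.59, SE 0.35, adjusted p = 0.0391; highest 0.414 when a mouse was left out, and 0.104 with the replicate block). Neither pair of groups overlapped, which the naming rule required of the *Pinx1* peak. Of the other 3 higher peaks, an intergenic peak at chr14:9464782-9465333 was at 28.1, 21.6 and 24.7 against 9.30, 12.9 and 10.3 CPM (1.29, SE 0.29, adjusted p = 0.0391). The day0RT mean was 35.3 ± 1.12 CPM, so that the values of both groups stood below the room temperature values, those of cold further below. A peak in an intron of the amino acid transporter gene *Slc16a10*, at chr10:40103853-40104163, was at 11.8, 15.9 and 19.8 against 2.32, 1.62 and 2.57 CPM (2.58, adjusted p = 0.0146), with 1 to 3 nuclei in each cold mouse. A peak 172561 bases from the *Myc* start, at chr15:61812466-61813194, gave 1.71 (adjusted p = 0.0112). Each of these 3 calls was lost when some mice were left out, and the intergenic peak lost it when any of the 6 was left out (adjusted p between 0.0666 and 0.518).

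In *Acaca*, *Me1* and *Scd1* the peaks past the midpoint of the gene had lower medians than those before it, and in *Elovl6* and *Fasn* the medians were close. The division at the midpoint was made after the values were seen, for these 5 genes. In *Acaca*, which spans 272.0 kb, the 17 tested peaks before the midpoint had a median log2 difference of −0.08, with 10 lower and 7 higher in CL. The 16 tested peaks past the midpoint were all lower, with a median of −1.13, 13 with an unadjusted p under 0.05 and 1 called. Summed over the peaks past the midpoint, accessibility was 107 CPM in day7CL and 249 CPM in day7C, beside 63.9 CPM in day0RT, 309 CPM in day3CL and 107 CPM in day3C. Before the midpoint the sums were 393 and 433 CPM. *Me1* gave medians of −0.27 over 9 peaks before its midpoint and −0.85 over 7 past it, and *Scd1* gave −0.44 over 5 and −0.94 over 3, and all of these peaks were lower in CL. *Elovl6* gave −0.25 over 10 peaks and −0.28 over 7, and *Fasn* −0.43 over 3 and −0.49 in 1. Peaks of 1 gene come from the same mice, so no test was made over them.

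**Figure D3:**
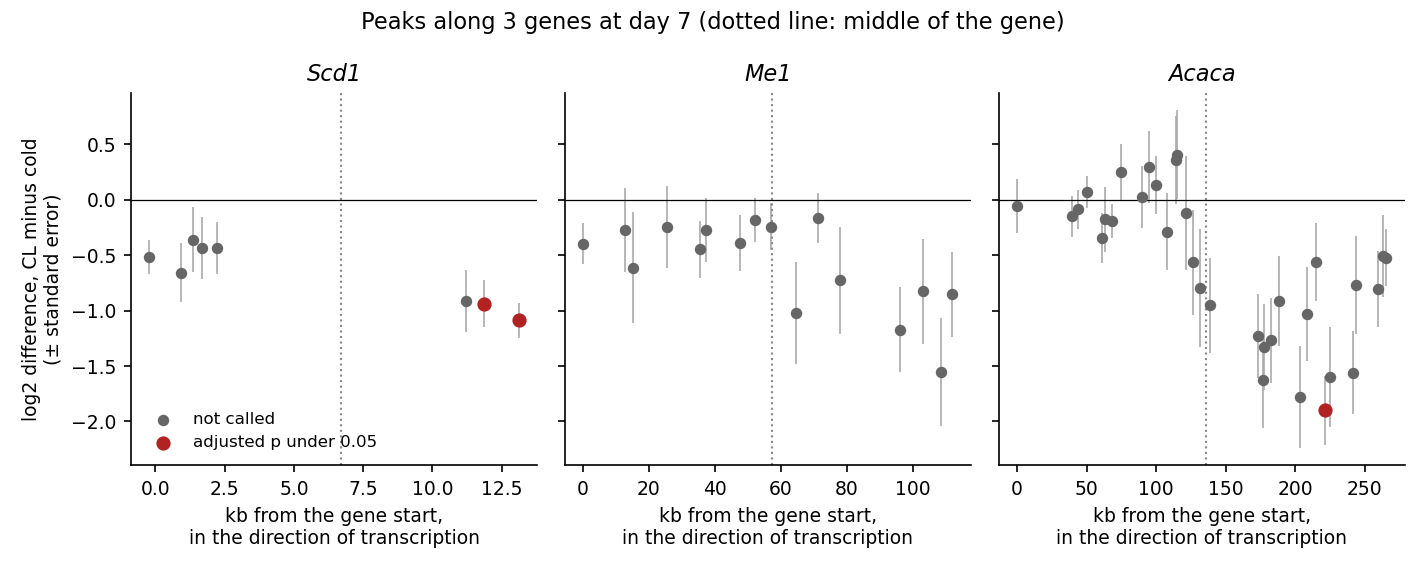
Log2 difference CL minus cold at day 7 (± SE) of each tested peak against its distance from the gene start in kb, in the direction of transcription; red points are called peaks and the dotted line marks the midpoint of the gene. In *Acaca* the points past the midpoint lie between −1.90 and −0.51, below most of those before it (−0.80 to 0.41).

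Because day 3 and day 7 used different mice, the difference between the treatments could be compared between the days. The log2 difference CL minus cold at day 7, minus that at day 3, passed the threshold for 38 genes, of which 18 were higher at day 7 (0.125%) and 20 lower (0.139%). The lower genes included *Scd1*, *Acaca*, *Scd2*, *Me1*, *Acss2*, *Elovl6* and *Acly*, which are 7 of the 20 tested DNL genes, and no DNL gene was among the higher ones. The median of the DNL list was 0.08 at day 3 and −0.21 at day 7, and that of the 7 lipogenic genes the study lists was 0.66 and −0.39. Genes of a list share the same mice, so these medians do not rest on separate observations. Of the called DNL genes, *Scd1*, *Acaca*, *Acss2*, *Elovl6* and *Acly* are also on the study's list, and *Scd2* and *Me1* are not. *Scd1* was at 410, 493 and 333 CPM in day3CL and 238, 182 and 324 CPM in day3C, so at day 3 every CL-treated mouse stood above every cold-exposed mouse, the opposite order to day 7. The log2 difference was 0.74 at day 3 and −0.78 at day 7 (difference −1.52, SE 0.18, adjusted p = 3.56e-08). For *Acaca*, 813, 925 and 638 against 533, 506 and 457 CPM at day 3 also turned over (0.66 and −0.45, difference −1.11, SE 0.15, adjusted p = 5.55e-07). The study itself reports that its lipogenic genes gained accessibility step by step to day 7 in cold and strongly at day 3 in CL. For the genes on its list, the change between days given here comes from the same mice and is no independent evidence.

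**Figure D4:**
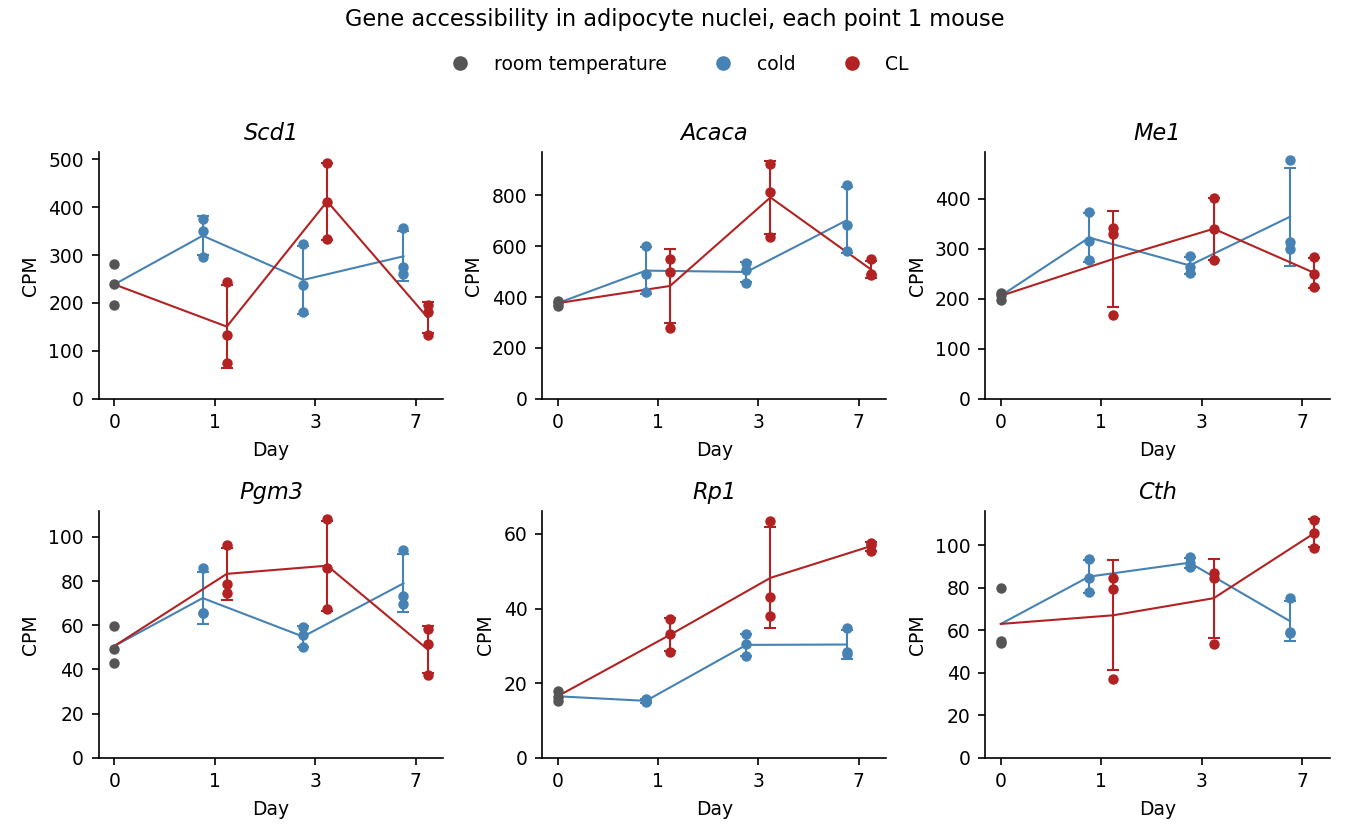
Accessibility in CPM of 6 genes in adipocyte nuclei by day (0, 1, 3 and 7, drawn at equal spacing), with 1 point per mouse, lines through group means and bars of 1 SD. *Scd1* and *Acaca* are highest in CL at day 3 and higher in cold than in CL at day 7, while *Rp1* in CL reaches 55.4 to 57.7 CPM at day 7.

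*Acaca* and *Scd1* kept the call whichever of the 12 mice was left out (highest adjusted p 0.000171 and 1.62e-05), and *Acaca* also under DESeq2, where *Scd1* had an adjusted p of 0.06. *Me1* gave −0.86 (adjusted p = 0.00142), and lost the call without day7C mouse 1 (adjusted p = 0.102) or day3CL mouse 2 (0.125). *Acss2* gave −1.15 (adjusted p = 4.24e-05) and held in all 12 fits that left out a mouse. Of its counts 35.4% fell in peaks shared with *Gss* and 33.1% in 1 peak shared with *Ggt7*, so that signal cannot be given to *Acss2* alone. *Scd2* gave −1.16 (adjusted p = 0.000607) and lost the call without day7C mouse 1 or day3CL mouse 2 (highest 0.0836). *Elovl6* gave −0.80 (adjusted p = 0.00913) and lost it without day7CL mouse 2, day7C mouse 1 or day3CL mouse 2 (highest 0.177). *Acly* gave −0.89 (adjusted p = 0.0223) and lost it in white adipocyte nuclei alone and in 6 of 12 fits, those without day7CL mouse 2 or 3, day7C mouse 1, day3CL mouse 1 or 2, or day3C mouse 3 (highest 0.27). The neighbouring *Gss*, a glutathione synthetase gene with 62.9% of its counts in peaks shared with *Acss2*, gave −1.37 (adjusted p = 1.6e-06), and *Pgm3* gave −1.43 (adjusted p = 5.64e-07). *Rwdd2a*, named after its values were seen, has all its counts in peaks shared with *Pgm3* and was also called (−1.08, adjusted p = 0.000959). Their shared signal therefore enters the lower genes under both names and cannot be given to either gene.

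Of the 18 genes higher at day 7, 8 were lymphocyte genes, and all 8 lymphocyte genes among the 38 lay in that direction. At day 3 the share of adipocyte counts in lymphocyte peaks was 2.52%, 2.29% and 2.83% in day3CL. It was 2.51%, 3.04% and 2.92% in day3C, with overlap, while at day 7 it was higher in every CL-treated mouse. The median log2 difference of all tested lymphocyte genes was −0.05 at day 3 and 0.11 at day 7. The part of this signal in the changes between days was not tested. *Gm8369* gave 2.05 (adjusted p = 0.00913) and *Wdr63*, a lymphocyte gene by the mark used here, 1.41 (adjusted p = 0.00297; 0.082 without day3CL mouse 2). *Sema4d* gave 1.03 (adjusted p = 0.0409), *Fli1* 1.01 (0.0329) and *Itga4* 1.10 (0.0288). These 3 calls held in 5, 4 and 6 of the 12 fits that left out a mouse, all 3 were lost without day7CL mouse 2 or day7C mouse 1, and all 3 were lost in white adipocyte nuclei alone. *Lrp3*, an LDL receptor-related gene, was the unmarked gene with the largest upward shift. It was at 53.7, 60.7 and 74.9 CPM in day3CL and 149, 147 and 157 CPM in day3C, far apart, and at 75.3, 109 and 92.0 against 68.8, 81.7 and 91.8 CPM at day 7, where the groups overlapped (−1.21 and 0.09, difference 1.30, adjusted p = 7.14e-06). Cold-exposed mice at day 3 were near the level of day0RT (144 ± 16 CPM). *Cth* gave 0.81 (adjusted p = 0.0159), *Txnip*, which encodes the thioredoxin-interacting protein, 0.73 (adjusted p = 0.0435) and *Bhlhe40*, a clock-related repressor gene, 1.03 (adjusted p = 0.0292). Both calls were lost with the replicate block (0.69, adjusted p = 0.0841, and 0.75, adjusted p = 0.256) and each held in 5 of 12 fits that left out a mouse. The number of called genes moved from 38 to 14 without day7C mouse 1, 11 without day3CL mouse 2, 21 without day7CL mouse 2, 22 without day3C mouse 3 and 58 without day7CL mouse 3, and DESeq2 called 4. With the replicate block it was 45, of which 30 were among the 38, and in white adipocyte nuclei alone 19, of which 17 were.

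**Figure D5:**
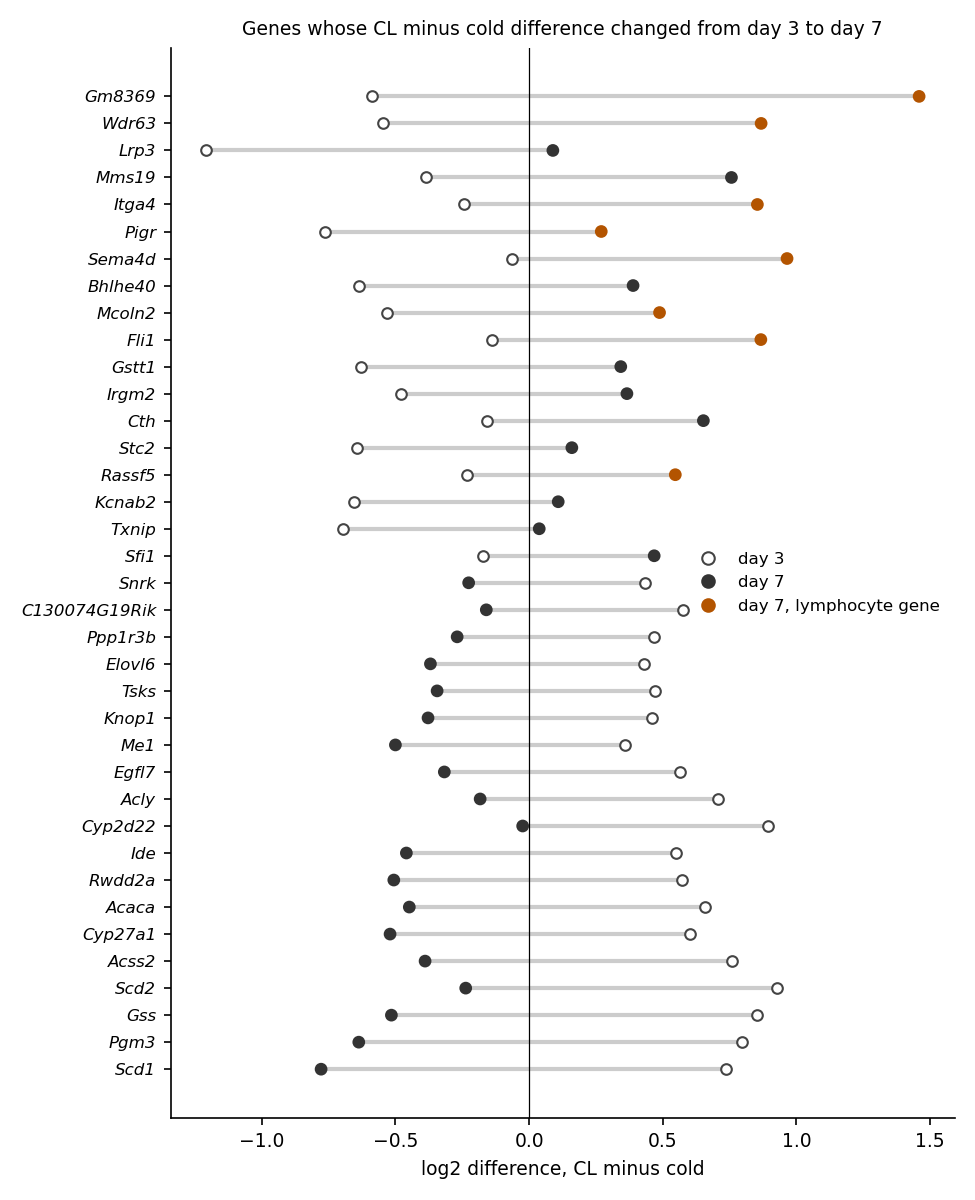
Log2 difference CL minus cold at day 3 (open points) and day 7 (filled points; orange for lymphocyte genes) for 37 of the 38 genes whose difference changed between the days, ordered by that change. *Scd1* moves from 0.74 to −0.78, *Lrp3* from −1.21 to 0.09, and the 8 lymphocyte genes all shift upwards.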

How the data were processed

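The authors deposited a binary matrix of 189598 peaks by 32552 nuclei, with 65588856 entries of 1 and 145 stored zeros, and an annotation of mouse, group and cluster. Per the study's methods and the submitters' processing notes, reads were aligned to mm10 with Bowtie2 and filtered with SAMtools (mapping quality of at least 30), peaks were called with MACS2, and nuclei were clustered with Signac; versions are not given in the sources used here. Counts made from these deposited entries are numbers of nuclei with reads in a peak, so several reads in 1 nucleus count once and widely open peaks are flattened. They were summed per mouse over the clusters Adipocyte and Beige. A gene received the peaks overlapping its body or 2000 bases upstream (GENCODE vM21 protein-coding genes on GRCm38; 17196 of 21938 genes had a peak, and 3.43% of peaks fell in more than 1 gene).

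Genes and peaks were tested with edgeR 4.0.16 in R 4.3.3 (quasi-likelihood F test on TMM factors, filterByExpr with 10, 15 and 0.7, Benjamini-Hochberg adjustment over all tested features, called at an adjusted p under 0.05), with all 7 groups in 1 fit. The difference between days is a contrast in the same fit. Each SE of a log2 difference was derived from the test, as the absolute log2 difference divided by the square root of the F statistic. CPM is per 1000000 counts of the TMM-scaled library, except that marker sums in lymphocyte nuclei are per 1000000 counts of the unscaled library. Tests on simulated counts recovered 94 of 100 genes changed 2-fold and 53 of 100 changed 1.5-fold, and for peaks 72 and 15 of 100. Changes were put only into features with at least 20 expected counts. All features shared 1 common dispersion, so the rates do not cover weaker features or differences in spread between features. Shares were compared by exact permutation over mice in Python 3.11.15 with scipy 1.17.1, and intervals cover counting error only. A nucleus barcode joins 4 indexes. In the second, the CL-treated mice carried 12 and the cold-exposed mice 12 others (0 shared), so index set and treatment cannot be told apart. In the fourth, mice with the same replicate number in all groups carried the same 8 and different numbers shared 0. The study states that 3 batches were run independently, without saying that the number marks the batch, so the number was fitted as a block in an alternative, given beside results whose call it changed. The p-values measure the spread between mice.

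Members and gene lists were chosen with earlier results of these data known. Genes named are the up to 10 largest changes in each direction among called unmarked genes and 5 among lymphocyte genes (mean of at least 20 counts, no overlap between groups), called list genes, and *Ucp1*, *Adrb3*, *Pparg* and *Adipoq*; for peaks 5 in each direction, and for the difference between days 3 in each direction. Others are named as chosen after seeing values or as list members. Alternatives were DESeq2 1.42.0, no filter, promoter peaks only, white or beige nuclei only, the 2 groups alone, a replicate block, nuclei with at least 2000 counts, unmarked genes only, nuclei with few counts in lymphocyte peaks (at or under 2.67%), and leaving out each mouse. Sequences were read from the GRCm38 reference. One gene that the rule names is not reported here.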

Additional observations from a re-analysis of the deposited data

Results flagged for a closer look

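Set out here are the genes chosen by the naming rule whose CL minus cold difference changed between day 3 and day 7. The test was of that change in the edgeR fit, and the change is given in log2 units. Among DNL genes and their neighbour it was −1.52 for *Scd1*, −0.86 for *Me1* and −1.43 for *Pgm3*. In the other direction it was 0.81 for *Cth*, 0.64 for *Sfi1* and 1.3 for *Lrp3*. Among the lymphocyte genes it was 2.05 for *Gm8369*, 1.03 for *Sema4d*, 1.01 for *Fli1* and 1.41 for *Wdr63*. The share of lymphocyte signal in these last changes was not tested. Of these genes *Scd1*, *Pgm3* and *Lrp3* kept the call whichever of the 12 mice was left out, and *Pgm3* and *Lrp3* also under DESeq2. Most counts of *Pgm3* fall in peaks shared with *Rwdd2a*, so its result cannot be given to *Pgm3* alone. Other genes given above passed the same test and are not repeated here, among them *Acaca*, *Scd2*, *Acss2*, *Elovl6*, *Acly* and *Gss*. Of those, *Acaca*, *Acss2* and *Gss* kept the call whichever mouse was left out, and *Acaca* and *Gss* also under DESeq2.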

How the results depend on the processing

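The 16 gene calls at day 7 became 0 under DESeq2 (331 genes at an unadjusted p under 0.05), 0 with promoter peaks only (678), 42 in beige nuclei, 26 with the 2 groups alone, 32 with the replicate block (all 16 included), 30 in nuclei with at least 2000 counts, 6 with unmarked genes only, 7 in nuclei with few counts in lymphocyte peaks, and 1 to 9 without 1 mouse; 20 genes without a filter (all 16 included) and 11 in white nuclei (6 of the 16) stayed within 1.5 times. The 42 calls in beige nuclei shared 2 genes with the 16. The 11 peak calls became 0 under DESeq2 (782), 4 without a filter, 3 at an adjusted p under 0.01, 4 in white nuclei, 7 in nuclei with at least 2000 counts, 6 in nuclei with few lymphocyte counts, and 4 to 8 without 1 mouse; the replicate block gave 9. The 38 changes between days became 4 under DESeq2 (328), 59 without a filter, 19 in white nuclei, 45 with the replicate block (30 of the 38) and 11 to 58 without 1 mouse. With a log2 limit of 2 the lymphocyte genes were 707 in place of 1914. The beige share kept its direction in all 9 alternatives (−12.1 to −1.0 percentage points, and −11.1 to −6.6 without 1 mouse).

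Mice with the same replicate number share an index set, but the numbers did not meet the limit set for pairing (r over 0.1 in every pair): over 12679 genes, same-numbered mice of the 2 groups deviated with r = 0.055, 0.002 and −0.03, and 2 of the 3 day7CL mice correlated best with another number. Values that changed sign were all small and uncalled. *Adrb3* (0.02) became −0.042 in white nuclei, −0.013 in nuclei with at least 2000 counts and −0.042 to 0.153 without 1 mouse. *Pparg* (0.12) became −0.238 with promoter peaks and −0.03 in beige nuclei, *Adipoq* (−0.07) ran from −0.218 to 0.109 without 1 mouse, and *Lrp3* (0.09) became −0.099 in white nuclei and −0.042 to 0.316 without 1 mouse. No called gene, peak or change between days reversed. Depth limits the weakest calls: 6 of the 11 called peaks (both near *Acaca*, and those near *Ucp1* and *Myc* and in *Slc16a10* and *Nav1*) rest on under 20 counts per mouse on average. In simulated peaks with at least 20 expected counts, 1.5-fold changes were recovered in 15 of 100 cases, a rate that does not cover these 6 peaks.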
